A study of Mus musculus with 130 samples.

Results

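Control embryos of the mouse 2-cell stage vary in Nr5a2, and those with high and with low levels were compared over all other genes. Among 50 control embryos, the 16 with the highest and the 16 with the lowest Nr5a2 RNA were selected on that level alone, which takes 32 of the 130 embryos of the series. The remaining 18 controls lie between them and are called the middle controls, and the other 80 embryos were cultured with SR1848. All embryos were B6129F1 with no genetic change named in the labels, collected as zygotes 5 hours after fertilization and cultured in KSOM in wet chambers without oil. From 6 hours on, the controls had 0.1% DMSO, the solvent, and the treated embryos had 10 µM SR1848. The controls' titles mark them NT and their treatment label gives 0.1% DMSO. The series lists 56 controls, of which 6 were not analysed here. Smart-seq2, which copies polyadenylated RNA into cDNA from an oligo-dT primer, gave each library from 1 whole embryo, so fewer cells with a transcript and less of it per cell cannot be told apart. Whether embryos came from the same female, drop or plate is not in the labels. A p-value here sets a difference against the spread among these embryos, taken as independent, and that spread may in part be technical.

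Nr5a2, also called LRH-1, belongs to the orphan nuclear receptors and recognises an extended half-site in DNA as a single molecule. It is known for bile acid and cholesterol metabolism in the liver, for steroid synthesis in the ovary and for roles in pluripotent cells, and the series addresses its part in zygotic genome activation, when an embryo starts transcription from its own genome. SR1848 is a small molecule used to repress Nr5a2. The question put to the controls is whether embryos that differ in Nr5a2 without any inhibitor also differ in other genes, and whether those differences lie along the ones seen with SR1848.

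Nr5a2 is on the minus strand of chromosome 1, and in the GENCODE M21 annotation of GRCm38 the transcript ENSMUST00000027649 spans chr1:136842571-136960448. Counts of 6 annotated transcripts were summed, and 3 of them carried most of the signal in controls. ENSMUST00000192929, which starts 6818 bases downstream of ENSMUST00000027649, held 54.8% of the Nr5a2 counts. ENSMUST00000192357, which starts 68 bases downstream of ENSMUST00000027649, held 29.1%, and ENSMUST00000027649 itself 13.1%. The RefSeq table of promoters (GRCm38.p6) has a window of 250 bases before to 50 after each of the 2 outer start sites. Both windows are printed, as those of the start sites of ENSMUST00000027649 and ENSMUST00000192929. The 2 starts do not divide the transcripts by how far they followed the grouping. As given below, ENSMUST00000192357, near the upstream start, followed it as ENSMUST00000192929 did, and ENSMUST00000027649 did not. They are read on the minus strand, 5′ to 3′, with no capitals because neither motif searched for below occurs in them.
Nr5a2 upstream start, chr1:136960399-136960698: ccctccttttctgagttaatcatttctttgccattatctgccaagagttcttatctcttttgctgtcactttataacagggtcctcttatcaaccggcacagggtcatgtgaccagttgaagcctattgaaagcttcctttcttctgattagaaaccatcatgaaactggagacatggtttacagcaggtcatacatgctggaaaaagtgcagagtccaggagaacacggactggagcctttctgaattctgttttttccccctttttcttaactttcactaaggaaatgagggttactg
Nr5a2 downstream start, chr1:136953581-136953880: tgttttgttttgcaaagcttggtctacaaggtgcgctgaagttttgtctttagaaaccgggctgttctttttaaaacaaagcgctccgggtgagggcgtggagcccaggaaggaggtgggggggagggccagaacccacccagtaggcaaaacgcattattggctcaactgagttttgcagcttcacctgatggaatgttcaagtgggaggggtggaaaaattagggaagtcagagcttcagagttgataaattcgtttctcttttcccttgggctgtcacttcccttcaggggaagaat

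The Nr5a2 level, in CPM, counts scaled to a library total of 1e6, was 140 ± 21.9 (SD, n = 16) in the high controls, 102 ± 7.46 (n = 18) in the middle controls and 77.3 ± 11.1 (n = 16) in the low controls. In the high controls the lowest, median and highest values were 116, 131 and 194 CPM. In the low controls they were 52.4, 81.3 and 89.6 CPM, and in the 80 SR1848 embryos 0.0107, 8.32 and 32.5 CPM. The grouping fixed the order of the control sets, so these levels are a description and carry no test. At the edges, the highest low control had 89.6 CPM and the next embryo, a middle control, 90.4 CPM. The highest middle control had 115 CPM and the lowest high control 116 CPM, so both limits fall within a continuous spread. The high mean was 1.82-fold the low mean (log2 0.86), while the middle controls were 10.2-fold above the SR1848 embryos (log2 fold change of SR1848 against them -3.35). Even the lowest control was 1.61-fold above the highest SR1848 embryo. The means of the high and low controls were thus closer together than those of the middle controls and the SR1848 embryos. The control and SR1848 ranges did not overlap, but the lowest control, at 52.4 CPM, was nearer to the highest SR1848 embryo, at 32.5 CPM, than to the control median of 103 CPM.

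Nr5a2 varied less among controls than most genes of its abundance. Its coefficient of variation over the 50 controls was 27.9%, against a median of 35.6% over 2905 genes with a mean between 50 and 200 CPM, and 435 of those genes varied less. The values rest on 660 Nr5a2 counts per high control and 460 per low control on average, which are estimated counts without molecular identifiers.

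The transcripts of Nr5a2 did not differ alike between the sets. ENSMUST00000192929 had 77.7 ± 17.9 CPM in the high and 41.02 ± 11.6 CPM in the low controls. ENSMUST00000192357 had 44.1 ± 9.72 CPM in the high and 20.8 ± 6.39 CPM in the low controls. ENSMUST00000027649 had 12.8 ± 8.60 CPM in the high and 12.8 ± 6.58 CPM in the low controls, so its mean was the same in both sets. These are parts of the sum that chose the embryos, and they are estimates for overlapping models that share most of their sequence, with upstream starts only 68 bases apart, so the split between models is uncertain. In SR1848 embryos ENSMUST00000192929 had 4.70 ± 5.31 CPM, ENSMUST00000192357 1.44 ± 2.31 CPM and ENSMUST00000027649 3.42 ± 3.94 CPM.

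**Figure D1:**
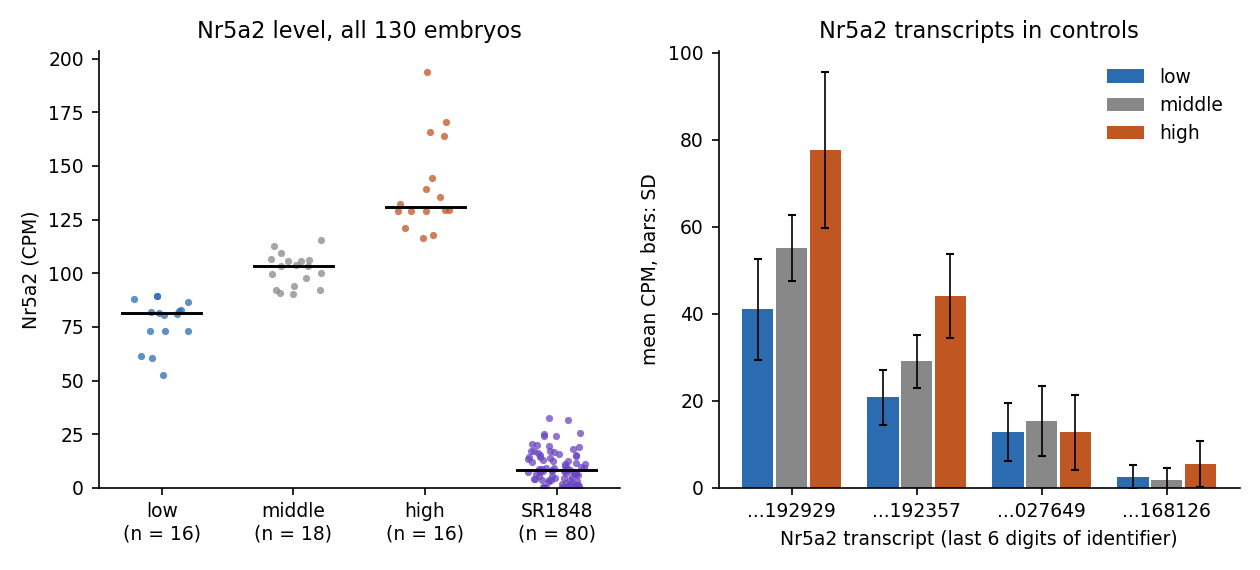
Left, Nr5a2 level in CPM for each of the 130 embryos, with low, middle and high controls and SR1848 embryos on the horizontal axis and a line at the median. Right, mean CPM with SD of the 4 most abundant Nr5a2 transcripts in the control sets. The control sets touch at their edges, all 50 controls lie above all SR1848 embryos, and ENSMUST00000027649 has 12.8 CPM in both outer sets.

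The deposited table also holds an entry named by the Nr5a2 gene identifier, outside the mouse transcripts, whose sequence the sources used here do not give. It was not used to rank embryos. Its level was 48.3 ± 16.4 CPM in high and 35.3 ± 17.99 CPM in low controls, higher than the low median in 13 of 16 high controls, and 49.5 ± 27.7 CPM in SR1848 embryos. The difference between high and low had a permutation p of 0.0414, and 0.165 after adjustment over 8 measures of the libraries, so it did not pass. Its mean in SR1848 embryos was thus not below those of the control sets, unlike that of the Nr5a2 transcripts.

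None of 8 measures of the libraries differed between the sets after adjustment, but depth, the mitochondrial share and the B2 entry leaned with the grouping. High controls had 4692508 ± 1074516 counts (SD) and low controls 5827355 ± 1497096, and 12 of 16 high controls lay below the low median (permutation p = 0.0209, 100000 resamples, two-sided, adjusted p = 0.165 over 8 measures). Since CPM divides by this total, depth is tied to the ranking. Mitochondrially encoded genes held 5.05% ± 2.55 of counts in high and 3.78% ± 1.29 in low controls (p = 0.0824, adjusted p = 0.165), and 11 of 16 high controls lay above the low median. The deposited B2 entry had 74.1 ± 40.9 CPM in high and 50.5 ± 33.5 CPM in low controls (permutation p = 0.0823, adjusted p = 0.165), and 10 of 16 high controls lay above the low median. With the total count or the mitochondrial share as a covariate, the edgeR comparison of high and low controls described next called 0 genes, and the part of B2 in the values below was not tested. Genes detected after thinning every embryo to 2705843 counts numbered 15348 ± 449 and 15272 ± 385 (permutation p = 0.605). The share of counts in the 100 most abundant genes, the number in the embryo's title and the deposited B1 entry did not pass either. Marker sums are a description, since no other stage was measured to compare them with. Genes of the 2-cell stage summed to a median of 414 CPM in high (range 145 to 743) and 258 CPM in low controls (189 to 568), and oocyte-derived genes to 1306 and 1278 CPM. Markers of later stages summed to 21.1 and 18.2 CPM, with 2 of 6 under 1 CPM. Cumulus markers summed to 48.4 and 49.3 CPM with 5 of 7 under 1 CPM, blood markers to 15.6 and 13.3 CPM with 3 of 4 under 1 CPM and Hbb-bs at 0 in all controls, and the 5 sperm markers to 0.333 and 0.438 CPM all 5 with a mean under 1 CPM and Tnp2 at 0 in all controls. Nearly all of the cumulus sum was Amhr2, and of the blood sum Hba-a1. A wider list of 13 blood genes summed to a median of 52.2 CPM in high (19.7 to 139.7) and 33.2 CPM in low controls (11.9 to 124.6), with all 3 tested members estimated higher, among them Hba-a2 at 42.1 and 28.5 CPM, and none at an unadjusted p under 0.05.

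No gene differed between high and low controls at an adjusted p under 0.05. With edgeR's quasi-likelihood test over 12117 genes, leaving out Nr5a2, 0 genes were higher (0%) and 0 lower (0%), and the smallest adjusted p was 0.874. At an unadjusted p under 0.05 there were 645 genes, 5.32% of those tested, of which 200 (1.65%) were higher and 445 (3.67%) lower in high controls. A threshold of 0.05 by itself lets through 5% of genes when none differs. DESeq2 and limma-voom also called 0 genes, with 753 and 678 genes at an unadjusted p under 0.05. For 0 genes did the ranges of the 16 high and the 16 low embryos not overlap. The quartiles of all log2 fold changes, high minus low, were -0.21 and 0.17, with a median of -0.02.

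The intervals say how large a difference could have gone unseen. The median standard error was 0.27 on the log2 scale over all genes and 0.21 over the 6423 genes with a mean of at least 20 CPM. Of those 6423 genes, 5909 (92.0%) had a 95% confidence interval inside a 2-fold change either way, and 3227 (50.2%) one inside 1.5-fold. Over all 12117 genes the share inside 2-fold was 66.7%. Differences of 2-fold or more were estimated for 51 higher and 82 lower genes, of which 10 had a mean of at least 20 CPM.

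**Figure D2:**
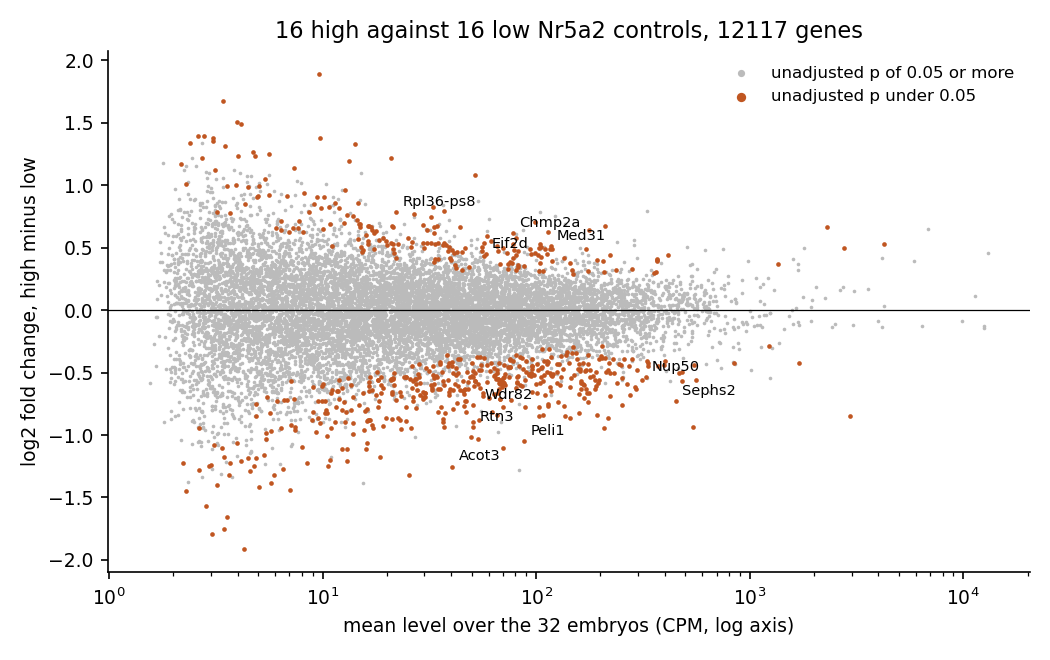
Log2 fold change, high minus low, of each of 12117 genes against its mean level over the 32 embryos in CPM on a log axis. Points at an unadjusted p under 0.05 (645 genes) are in colour and 0 genes passed after adjustment. Estimates narrow as the level rises.

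One low control had the highest value more often than any other embryo. The control numbered 31 in its title held the highest value among the 32 embryos for 1070 genes (8.83%), against 736 (6.07%) for the next embryo, a high control, and for 186 of the 445 lower genes (41.8%). Without it the test again called 0 genes, and 435 genes had an unadjusted p under 0.05, of which 169 were higher and 266 lower. Of the 445 lower genes, 247 kept an unadjusted p under 0.05 without this embryo. Leaving out each of the 32 embryos in turn gave 0 calls in all 32 fits, with between 435 and 854 genes at an unadjusted p under 0.05 and a smallest adjusted p of 0.362.

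Since no gene passed, the genes named next are those of at least 20 CPM with the smallest p, 12 in each direction, and none is called different. Wdr82 (chr9:106170928-106191139, plus strand), a subunit of the SET1 histone H3K4 methyltransferase complexes, had the smallest p of all genes. The lowest, median and highest Wdr82 levels were 25.01, 38.6 and 60.03 CPM in high controls and 25.2, 62.97 and 152 CPM in low controls. All 16 high controls lay below the low median, but the ranges overlapped because some low controls were as low as the high ones. The log2 fold change was -0.88 ± 0.21 (SE), with an unadjusted p of 0.000118 and an adjusted p of 0.874. Middle controls had 27.3, 44.3 and 67.4 CPM, nearer to the high set, and SR1848 embryos 33.9, 122 and 570 CPM. Wdr82 was higher with SR1848 than in the middle controls (log2 fold change 1.84, adjusted p = 7.71e-13). The highest Wdr82 value was in the low control numbered 54, and without number 31 the log2 fold change was -0.82.

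Other genes with lower estimates in high controls had a long upper tail in the low set. Sephs2, which makes the selenium donor for selenoproteins, had a lowest, median and highest level of 175, 338 and 455 CPM in high and 142, 468 and 1113 CPM in low controls. Its log2 fold change was -0.73 ± 0.19 with an unadjusted p of 0.000581, and all 16 high controls lay below the low median. Nup50, a nuclear pore protein, had 173, 252 and 392 CPM in high and 259, 323 and 738 CPM in low controls, with a log2 fold change of -0.54 ± 0.15. In both genes the low set holds values that no high control reached, while its lower end overlaps the high set. The highest value of both was in the control numbered 31. Without it the log2 fold changes were -0.63 for Sephs2 and -0.44 for Nup50. The low control numbered 54 had 1040 and 537 CPM, also above all high controls.

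Acot3, a peroxisomal acyl-CoA thioesterase, had the lowest estimate of the 12, at -1.25 ± 0.36, with medians of 23.9 CPM in high and 38.4 CPM in low controls. Its highest low value, 236 CPM, was in the embryo numbered 31, and without that embryo the estimate was -0.91. The ubiquitin ligase Peli1 moved likewise from -1.05 to -0.84, the deubiquitinase Otub2 from -0.90 to -0.66, the reticulon Rtn3 of the endoplasmic reticulum from -0.93 to -0.75 and Gclm, the modifier subunit of glutathione synthesis, from -1.11 to -0.86. For 7 of the 12 genes that embryo held the highest value. The others among the 12 were Trim27 (-1.01), Usp49 (-0.89), Akt1s1 (-0.86), the mTORC1 inhibitor also called PRAS40, and Akirin1 (-0.78). All 12 kept an unadjusted p under 0.05 without number 31. They were picked by p on largely the same embryos, so this is no support.

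The 12 genes with higher estimates were smaller in size. Med31, a subunit of the Mediator complex that links transcription factors to RNA polymerase II (chr11:72211724-72215592, minus strand), had a lowest, median and highest level of 82.4, 133 and 182 CPM in high and 46.5, 85.2 and 220 CPM in low controls. Its log2 fold change was 0.51 ± 0.16 with an unadjusted p of 0.00320, and 15 of 16 high controls lay above the low median. The highest Med31 value of the 32 embryos nevertheless belonged to a low control. Chmp2a, of the ESCRT-III membrane scission machinery, had 47.3, 88.3 and 142 CPM in high and 18.1, 59.2 and 112 CPM in low controls, with a log2 fold change of 0.62 ± 0.20. Eif2d, a translation initiation factor, had 34.6, 67.7 and 110 CPM in high and 29.9, 48.4 and 79.4 CPM in low controls, with a log2 fold change of 0.45 ± 0.15.

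Other higher estimates were those of the pseudogene Rpl36-ps8 (0.78), whose reads cannot be separated from those of its parent gene, the splicing factor Scnm1 (0.67), Mpdz (0.62), the mitochondrial membrane protein Mpv17 (0.54), Fastkd1 (0.52), the mitochondrial import subunit Tomm7 (0.50), the ubiquitin ligase subunit Gid4 (0.47) and Washc2 (0.45) of the WASH complex. Their unadjusted p-values ran from 0.00262 to 0.00930, and all had an adjusted p of 0.874. The directions of these genes were set beside those with SR1848, which shares no embryo with this contrast when the middle controls are its reference. Of the 12 genes with lower estimates, 8 rose with SR1848 and 1 fell, and of the 12 with higher estimates, 4 rose and 5 fell. Over all genes tested 39.7% rose and 28.3% fell. With scaling factors from oocyte transcripts these counts were 6 and 1 for the lower and 1 and 5 for the higher estimates. Over all 14545 genes, 3272 rose and 4984 fell with those factors.

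**Figure D3:**
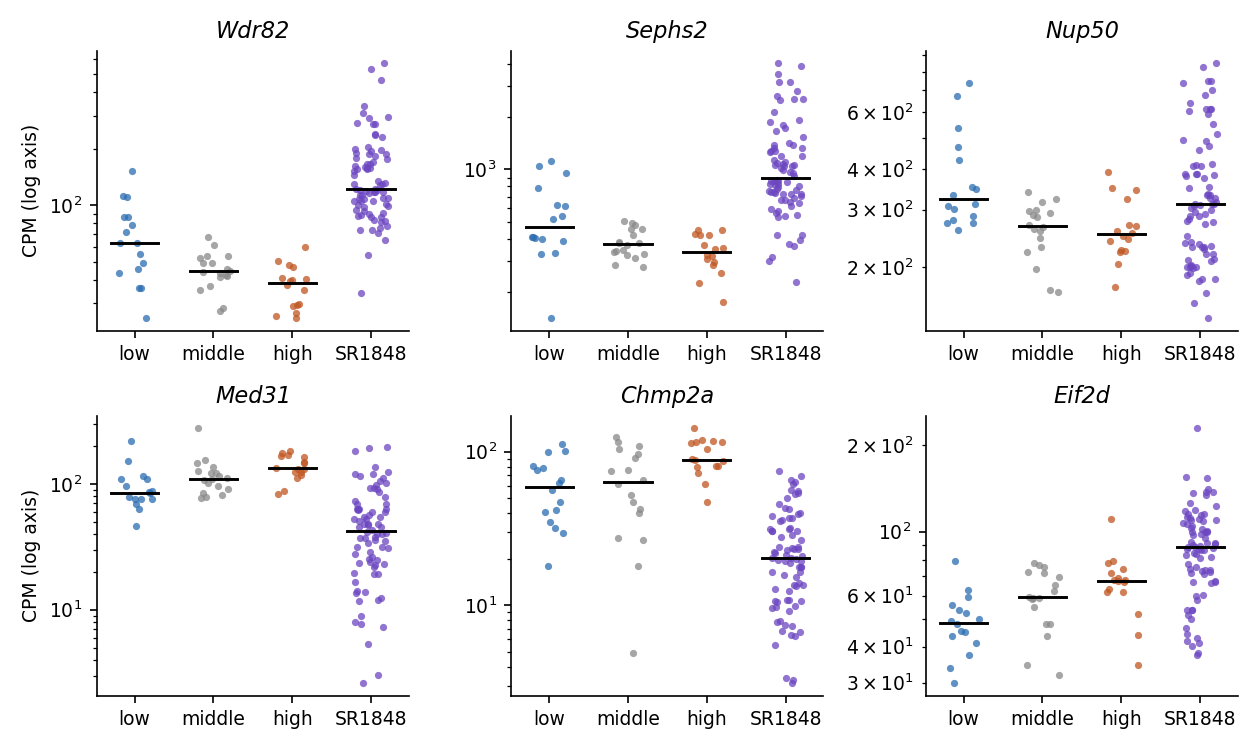
Level in CPM (log axis) of 3 genes with lower and 3 with higher estimates in high controls, for each low, middle and high control and each SR1848 embryo, with a line at the median. The ranges of high and low controls overlap in all 6 genes. The long upper tail of the low set in Sephs2 and Nup50 reaches 1113 and 738 CPM, both in the control numbered 31.

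As a description, the genes whose level ordered the 50 controls most like Nr5a2 were taken from 6071 genes of at least 20 CPM by Spearman rank correlation. The values share the library totals of the same 50 embryos. The highest were Med31 (0.53), Eif2d (0.50), the receptor Fgfr1 (0.48), Chmp2a (0.46), the spindle checkpoint kinase Bub1 (0.45) and Mpv17 (0.44). The lowest were Wdr82 (-0.60), Abhd13 (-0.51), Zbed3 (-0.49), Polm (-0.47), Nup50 (-0.46) and the cyclin Ccnl1 (-0.46). Of these genes, Med31, Eif2d, Chmp2a, Mpv17, Wdr82 and Nup50 were already named above, and the others were not. The 50 controls include the high and low controls, so this overlap is no independent support.

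Gene groups were described by 32 lists, and no member of any list passed the adjusted test. The comparators for each are those of all 12117 genes: a median of -0.02, 47.4% of estimates above 0, and 1.65% higher and 3.67% lower at an unadjusted p under 0.05. For counts with SR1848 they are 39.7% higher and 28.3% lower of 14545 genes. With factors from oocyte transcripts 3272 of the 14545 were higher and 4984 lower. Genes encoded by the mitochondrial genome had the highest median of the lists with at least 5 tested members, 0.42, with 12 of 13 estimates above 0 and 3 of 13 at an unadjusted p under 0.05, all higher. mt-Co2, a subunit of cytochrome c oxidase, had a lowest, median and highest level of 956, 2426 and 8161 CPM in high and 717, 1760 and 3249 CPM in low controls, and mt-Nd1 of complex I had a log2 fold change of 0.53 ± 0.22. The single exception below 0 was mt-Atp6 at -0.09. The nuclear genes of oxidative phosphorylation had a median of 0.09 over 75 genes, with 1 at an unadjusted p under 0.05. The 13 genes follow the mitochondrial share of the library given above, and what sets that share was not tested.

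Genes of the 2-cell stage, the burst of transcripts that marks the start of the embryo's own transcription, had a median of 0.26 over 28 tested of 34, with 24 estimates above 0. Of the 28, 2 had an unadjusted p under 0.05: Tdpoz1, at 20.3, 132 and 237 CPM (lowest, median and highest) in high and 24.99, 75.2 and 132 CPM in low controls, and Naalad2, with a log2 fold change of 0.49 ± 0.22. The Zscan4 and Usp17l genes on this list are near-identical copies whose counts are uncertain, among them Zscan4f (0.37) and Usp17lb (0.50). With SR1848 18 of these 28 genes rose and 7 fell, or 14 and 8 with factors from oocyte transcripts. The pair above differed from most of them: Naalad2 fell by 2.44 and Tdpoz1 had -0.68 on the log2 scale, while Zscan4f rose by 2.46.

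Ribosomal protein genes had a median of 0.15 over 80 genes, 73 of them above 0, where 47.4% of all genes were above 0. At an unadjusted p under 0.05 there were 4 (5%), all higher, against 1.65% of all genes higher and 5.32% in either direction. These 4 were Rps3a1 (0.67), Rps27 (0.50), Rps27a (0.31) and Rps9 (0.31). With SR1848 57 of the 80 fell and 6 rose, where 28.3% of all genes fell and 39.7% rose. Ribosome biogenesis factors, of which 72 of 83 fell with SR1848, had a median of -0.01 in the contrast within controls, with 2 higher and 1 lower at an unadjusted p under 0.05. Proteasome subunits, of which 31 of 44 fell with SR1848, had a median of 0.08, and translation initiation factors, of which 29 of 42 fell, 0.02. With factors from oocyte transcripts 63, 74, 36 and 31 genes of these lists, in the order named, fell with SR1848. The medians of these lists with clear falls under SR1848 thus ran from -0.01 to 0.15 between high and low controls. The quartiles of all single genes in that contrast were -0.21 and 0.17. Mean Nr5a2 differed 1.82-fold between high and low controls and 10.2-fold between middle controls and SR1848 embryos.

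Regulators proposed for genome activation had a median of -0.03 over 41 genes. The 1 with an unadjusted p under 0.05 was Obox3, a homeobox gene of the Obox family. Its lowest, median and highest levels were 29.2, 110 and 189 CPM in high and 52.1, 70.7 and 139 CPM in low controls (log2 fold change 0.49 ± 0.18, p = 0.0109), and it fell by 2.42 with SR1848. Subunits of RNA polymerase II, Mediator and general factors had a median of 0.04 over 77 genes with 4 at an unadjusted p under 0.05, all higher: Med31, Gtf2h2 (0.45), Med6 (0.43) and Med11 (0.36). Splicing factors had 1 such gene higher and 4 lower, among them Srsf2 (-0.66) and Prpf38b (-0.45). The 9 tested genes of 24 known as Nr5a2 targets in liver and gonad had a median of -0.07 with none at an unadjusted p under 0.05, and the nearest was the cell cycle gene Ccne1 at -0.47 ± 0.23. Other nuclear receptors had a median of -0.10 over 24 genes, again with none.

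In 3 lists of transcripts stored in the egg, named below, all genes at an unadjusted p under 0.05 had lower estimates in high controls. None was called. This did not hold for the maternal mRNA decay genes, of which 43 were tested. There 1 gene was higher at that level, Xrn1 (0.40), and 1 lower, Zar1 (-0.59). Oocyte transcripts had a median of -0.01 over 51 genes, with 2 (3.92%) lower at an unadjusted p under 0.05, against 3.67% of all genes, Rgs2 (-0.87) and Zar1 (-0.59). Maternal chromatin factors had a median of -0.08 over 32 genes with 4 such genes (12.5%), all lower: the histone chaperone Asf1a (-0.85), the imprinting factor Zfp57 (-0.52), the maintenance methyltransferase Dnmt1 (-0.46) and Brd2 (-0.42). In the subcortical maternal complex, an assembly of egg proteins under the cell membrane, 2 of 19 genes (10.5%) were lower at that level, Zbed3 (-0.85) and Khdc3 (-0.78), and the summed level had a median of 4628 CPM in high (2854 to 6158) and 5930 CPM in low controls (2285 to 14578). Zbed3 shows the same upper tail in the low set, with 646, 2151 and 3206 CPM in high and 394, 3261 and 11619 CPM in low controls. Estimates above 0 numbered 25 of 51, 12 of 32 and 7 of 19 in the 3 lists, in the order given. Of all genes tested, 47.4% were above 0.

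**Figure D4:**
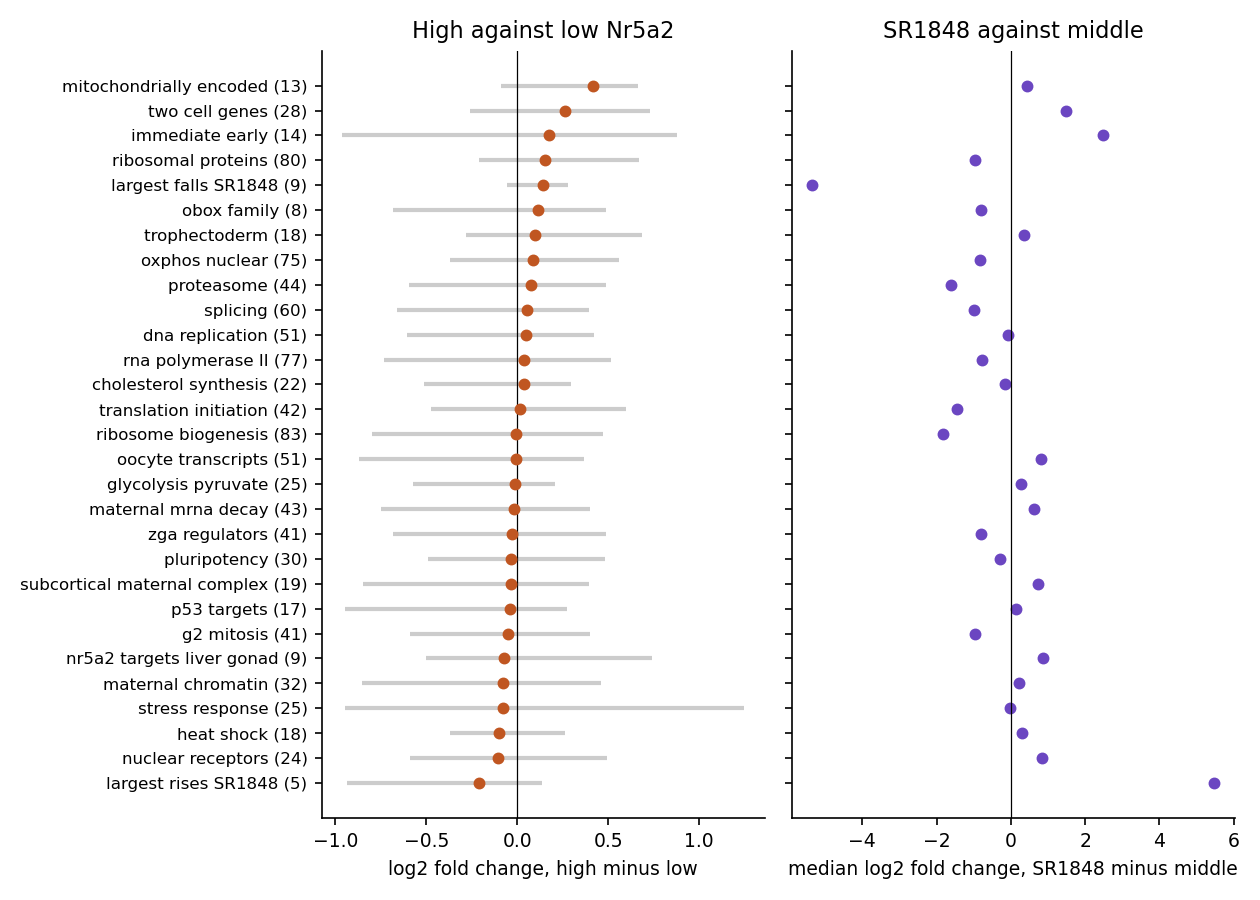
Left, median (point) and full range (line) of the log2 fold changes, high minus low Nr5a2, of each gene list with at least 5 tested members, the number tested in brackets. Right, median log2 fold change of the same lists for SR1848 against the 18 middle controls, on its own wider axis. List medians run from -0.21 to 0.42 on the left and from -5.35 to 5.48 on the right, and lists named for SR1848 were chosen on their response to it.

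Against the 18 middle controls, SR1848 raised 5771 of 14545 genes (39.7%) and lowered 4116 (28.3%), with a median log2 fold change of 0.38 over all genes. This split depends on the scaling: with factors from oocyte transcripts 3272 genes were higher and 4984 lower, so that 39.6% of calls were higher in place of 58.4%, and the median was -0.09. With the same factors the SR1848 median of the mitochondrially encoded genes turned from 0.43 to -0.14, that of the maternal chromatin factors from 0.22 to -0.24 and that of the maternal mRNA decay genes from 0.62 to -0.02. No embryo enters both this comparison and the contrast of high and low controls, and 11996 genes were tested in both. The 513 genes lower with SR1848 by at least 8-fold had a median high minus low log2 fold change of 0.04, with 288 (56.1%) above 0 and 15 (2.92%) at an unadjusted p under 0.05. The 2738 genes lower by 2- to 8-fold had a median of 0.01, and the 5784 genes within 2-fold -0.02. The 2860 genes higher by 2- to 8-fold had a median of -0.06 with 42.2% above 0, and the 101 genes higher by at least 8-fold 0.09 with 56.4% above 0. Across all 11996 genes 47.4% of estimates were above 0 and 5.35% had an unadjusted p under 0.05. From the deepest falls to the rises of 2- to 8-fold the share above 0 thus went down from 56.1% to 42.2%, with medians no further than 0.06 from 0, and it was 56.4% again in the highest class. With factors from oocyte transcripts for SR1848 the shares in the same order were 57.6%, 51.2%, 45.5%, 40.1% and 54.3%. These shares are a description, since genes are not independent replicates. Of the 513 genes with the deepest falls, 391 had an interval inside a 2-fold change between high and low controls.

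Single genes with the deepest responses show the same. Timd2, which fell by 6.32 on the log2 scale with SR1848, had 431 ± 190 CPM in high and 379 ± 188 CPM in low controls, and 6.38 CPM on average with SR1848. Its log2 fold change between high and low controls was 0.19, with a 95% interval from -0.28 to 0.66. Sumo2, a ubiquitin-like modifier, fell by 5.37 with SR1848 and had 509 ± 195 CPM in high and 433 ± 133 CPM in low controls, with an interval from -0.12 to 0.57. The kinesin Kif3c fell by 5.64 with SR1848 and had 219 ± 104 and 204 ± 91.9 CPM. These 9 genes with the largest known falls had a median of 0.14 between high and low controls, 6 of 9 above 0, and all 9 intervals stayed inside a 2-fold change.

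Of 10 genes chosen for the largest rises with SR1848, 5 passed the filter on low counts in the contrast within controls. Hes1, a repressor in Notch signalling, had 8.48 ± 8.99 CPM in high and 9.90 ± 12.95 CPM in low controls and 391 CPM on average with SR1848. Hes6 had 5.64 ± 4.89 and 7.78 ± 6.69 CPM, and Cited4 2.33 ± 2.50 and 4.38 ± 6.04 CPM. At these low levels the intervals are wide, as for Hes1 from -1.34 to 0.92, and a 2-fold difference was not detectable.

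**Figure D5:**
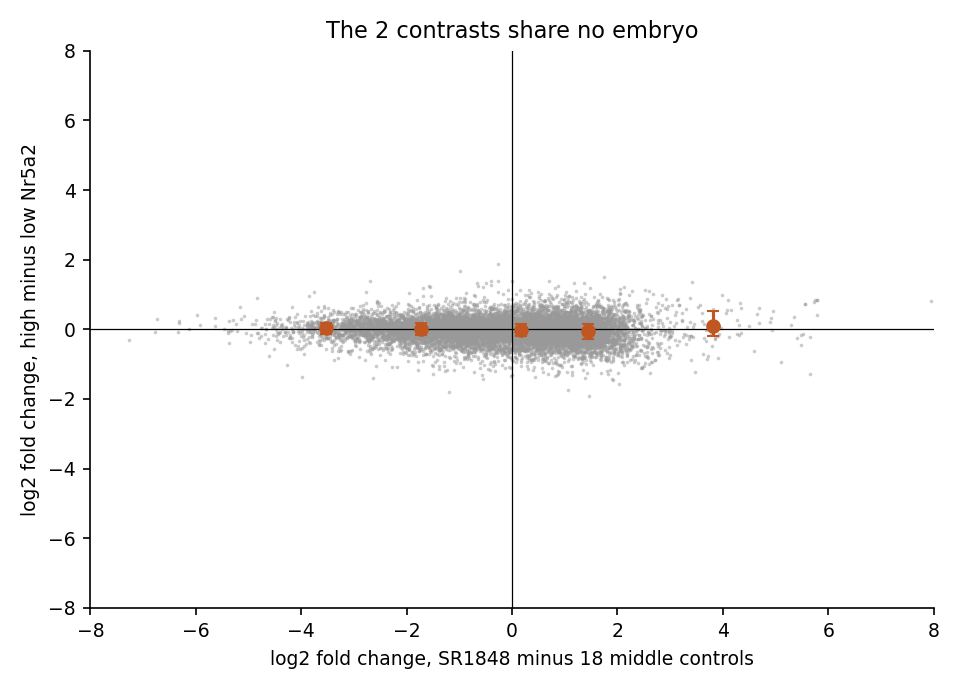
Log2 fold change, high minus low Nr5a2, of 11996 genes (vertical) against that of SR1848 minus the 18 middle controls (horizontal), on equal scales. Large points give the median with quartiles in 5 classes by the SR1848 fold change, and all 5 medians lie between -0.06 and 0.09.

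The relation to Nr5a2 was also fitted as a slope per doubling of Nr5a2 in embryos outside the contrast. In the 18 middle controls 0 of 9787 genes passed by edgeR (0%), with 227 (2.32%) at an unadjusted p under 0.05. Of the 24 genes named above with the smallest p, 9 had a slope of the same sign as their difference between high and low controls, and 0 had an unadjusted p under 0.05, the smallest being 0.0670. These slopes span a narrow range of Nr5a2, from 90.4 to 115 CPM, and their standard errors ran from 0.64 to 2.23, so they hold little information on differences of this size.

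In the 80 SR1848 embryos Nr5a2 was low but spread widely on the log2 scale. The estimated Nr5a2 counts per embryo ran from 0.0383 to 152 with a median of 40.4, so the low end of that scale rests on few counts. There 34 of 9371 genes (0.363%) had a positive and 10 (0.107%) a negative slope at an adjusted p under 0.05 (edgeR). Of the 34, 31 were lower with SR1848 than in the middle controls and 0 higher. All 10 with a negative slope were higher with SR1848. Over all genes 28.3% were lower and 39.7% higher, and the slope and the SR1848 difference use the same 80 embryos, so these counts are not independent. With factors from oocyte transcripts for SR1848, 31 of the 34 were lower and 8 of the 10 higher, beside 4984 lower and 3272 higher of all 14545 genes. Bop1, needed for processing of ribosomal RNA, had a slope of 0.44 ± 0.10 and fell by 2.14 with SR1848, the proteasome subunit Psmd14 had 0.41 ± 0.10, and Polr2b, the second-largest subunit of RNA polymerase II, had 0.30 ± 0.06. Among controls none of the 34 had an unadjusted p under 0.05 between high and low Nr5a2, and their median log2 fold change was -0.01. Of the 10 with a negative slope 8 were tested between high and low controls, with a median of 0.20, opposite in sign to their slopes, and 1 had an unadjusted p under 0.05, Bicd1 (0.60 ± 0.27, p = 0.0334). Psmd14, for instance, had 149 CPM in high and 131 CPM in low controls against 9.44 CPM with SR1848, and Bop1 81.0 CPM in high and 105 CPM in low controls.

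A slope over all 50 controls, which shares its embryos with the contrast, was negative at an adjusted p under 0.05 for 3 of 10388 genes (0.0289%) and positive for none (edgeR, 951 genes at an unadjusted p under 0.05). They were Wdr82, with -1.03 ± 0.18 per doubling of Nr5a2 and an adjusted p of 0.00607, the RNA demethylase Alkbh5 with -0.83 ± 0.17, and Atxn7l3b with -0.81 ± 0.17. Without the control numbered 31, Wdr82 alone passed, with -0.96 and an adjusted p of 0.0294. In SR1848 embryos the slope of Wdr82 was -0.06 ± 0.06, and in the 18 middle controls -0.41 ± 0.96. The difference of slopes between controls and SR1848 embryos was tested in 1 model over 13221 genes and passed for 0 (0%), with 418 genes at an unadjusted p under 0.05.

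Promoters of the RefSeq table (GRCm38.p6, 250 bases before to 50 after the start) were searched on both strands for 2 motifs, TCAAGGNCA, a form of the monomer site of this receptor family, and the shorter half-site AAGGTCA, which overlaps it when its N is T. TCAAGGNCA occurred in 1.62% and AAGGTCA in 4.72% of all 32851 promoters. For genes tested between high and low controls, 123 of 9168 with a promoter in the table (1.34%) held TCAAGGNCA in 1 or more promoters. Among genes at an unadjusted p under 0.05 they were 4 of 139 higher genes (2.88%) and 4 of 370 lower genes (1.08%), counts too small to compare. Among genes lower with SR1848 by at least 8-fold they were 10 of 381 (2.62%), and among genes higher by at least 8-fold 0 of 57. AAGGTCA occurred in 358 of the 9168 (3.90%), in 3 of 139 higher genes (2.16%), in 15 of 370 lower genes (4.05%), and in 20 of 381 (5.25%) and 1 of 57 (1.75%) of the genes lower and higher with SR1848 by at least 8-fold. Neither motif occurs in the Nr5a2 windows printed above or in that of Wdr82, which says only that these letters are not in those windows. Both overlapping windows of Acot3 hold AAGGTCA once, on the reverse strand, and a match is a description, not a site.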

How the data were processed

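RNA was measured in 130 single 2-cell mouse embryos, 50 with DMSO and 80 with SR1848, grouped by their labels. The authors deposited kallisto estimated counts per transcript, of which 28.5% are not whole numbers. Tools named in the submitters' processing notes are kallisto 0.46.1, DESeq2 1.32.0, R 3.5.1, Trim Galore 0.6.2 and bcl2fastq, and mm10 and hg19 appear there as builds with no role. Other deposited tables, with log2 values, were not used. The gene of a transcript came from the authors' deposited table (117282) or from GENCODE M21 (345). Those without a gene, 1726, held 0.735% of counts, and 5 other entries 0.0258%. All of these stayed out of the gene tests and their library sizes. The total count, by which Nr5a2 CPM was divided and which was compared between sets, includes them. Estimated counts split reads among overlapping transcripts and near-identical copies, whose values are uncertain.

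Controls were ranked on Nr5a2 CPM, the sum of 6 transcripts over the total count, without TMM scaling. Counts were summed per gene and rounded. After filterByExpr, the test was edgeR's quasi-likelihood F-test (version 4.0.16 in R 4.3.3, TMM factors, robust glmQLFit, two-sided, Benjamini-Hochberg over all genes tested, threshold 0.05), after a test on simulated data. Nr5a2 was left out of the genes tested. CPM of other genes use TMM factors over all 130 embryos. Slopes use log2 Nr5a2 CPM with values under 0.1 set to 0.1 (1 SR1848 embryo). Library measures were compared with two-sided permutation tests. DESeq2 1.42.0 and limma 3.58.1 were alternatives, with other scalings, filters, covariates, group sizes and rankings. Totals ran from 3173683 to 8438537 counts in controls, and counts without molecular identifiers are not independent molecules. No pair of controls agreed within sampling noise (lowest chi-square per gene 19.8). Named genes are the 12 in each direction ranked first by p among genes that average 20 CPM or more (no predicted or unnamed genes), then from each list its 2 members of smallest p and its most abundant one, and the 6 genes most and least rank-correlated with Nr5a2. Of the 24 genes chosen by p, 1 is not reported here by name. Other list members that are named were chosen after their values were seen. The members, lists and tests were chosen with earlier results of these data known. Coordinates are of GENCODE M21 (GRCm38).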

Additional observations from a re-analysis of the deposited data

How the results depend on the processing

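Over 53 settings of the contrast, among them each of the 32 embryos left out in turn, edgeR, DESeq2 or limma-voom called 0 genes in either direction in all but these. Ranking with the Nr5a2 gene-identifier entry added, which kept 14 of 16 high and 13 of 16 low controls, gave 2 higher genes, Med31 (0.73, adjusted p = 0.0282) and Xaf1, and 1 lower, Slc30a3. The slope over all 50 controls gave 3 lower genes, and without DMSO replicate 31 it gave 1. The cause was not tested. The 24 named genes were followed over 22 settings each. Of these 528 values 0 changed direction and 3 passed the threshold, the other 2 being Wdr82 as a slope, -1.03 and -0.96. These settings refit largely the same embryos on which the genes were picked by p. A kept direction was thus mostly given beforehand and is no support. In the 18 middle controls, outside the contrast, 9 of the 24 had a slope of the same sign. With 25 against 25 controls, the difference in embryo number turned to 3.84 and that in B1 to -0.13 CPM. The count of genes higher with SR1848 was 3272 with factors from oocyte transcripts, with 4984 lower. Embryo numbers are shared between groups, but in 18 same-numbered pairs deviations correlated between -0.20 and 0.07, with 0 over 0.1 and 1 embryo correlating best with its own number, so they do not pair embryos. With the number as a replicate block 3666 genes were higher, against 4330 in the same 36 embryos without it. Genes under 20 CPM have wide intervals, and 16 against 16 embryos limit what differences of Nr5a2 of 1.82-fold can show.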

Other observations

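A pair of deposited entries named GFP, whose sequence and purpose are not given in the sources used here, summed to at most 2 counts in the high and in the middle controls, to at most 36 in a low control and to at most 21 in an SR1848 embryo. Their median was 0 in every set.

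Olfr1388, an olfactory receptor gene named here after its values were seen because it lay just under the 20 CPM limit for named genes, had 18.6 CPM in high and 8.11 CPM in low controls, a log2 fold change of 1.20 ± 0.29 and an adjusted p of 0.874. It had the smallest p in some of the fits that left out 1 embryo, where Wdr82 had it in 19 of 32.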
